A study of Homo sapiens with 6 samples.

Results

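The HOX cluster genes are the homeobox transcription factor genes named HOXA, HOXB, HOXC or HOXD with a paralog number from 1 to 13, and they were taken from the expression table by these symbols alone. They number 38 here, out of 20494 genes in all, 10 in the HOXA cluster, 10 in HOXB, 9 in HOXC and 9 in HOXD. Their RNA was measured by sequencing in PA-1 cells, an established human line from an ovarian teratocarcinoma, with 1 library for each of 6 groups. The Vector group was transfected with 8 µg of empty pCDNA3.1 plasmid, and the RIPK1, RIPK2, RIPK3 and RIPK4 groups with 8 µg of that kinase, for 48 h each. The Wnt3a group received 200 ng of Wnt3a, a secreted Wnt ligand, for 16 h, and the labels name no plasmid for it. In its comparison with Vector the ligand, the time and the transfection cannot be told apart. The RIPK proteins are receptor-interacting protein kinases, and RIPK4 is known to act on Wnt signalling.

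HOX genes encode transcription factors that bind DNA through a homeodomain and give cells their position along the head-to-tail axis. Within each cluster the order of the genes follows the order in which they are switched on, from the 3′ end (group 1, the earliest and most anterior) to the 5′ end (group 13, the latest and most posterior). Wnt signals and retinoic acid are known inducers of the 3′ genes in embryos and stem cells. CDX factors activate HOX genes in the posterior embryo, and Polycomb proteins keep the clusters silent in undifferentiated cells.

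The promoter sequences are shown because TCF/LEF factors, which carry out the transcriptional response to Wnt, bind CTTTGA and CTTTGT. RefSeq promoter entries (build GRCh38.p14) matched 20 of the 38 genes, with 27 entries at 26 distinct start sites, since HOXC4 and HOXC5 are listed with the same one. The window searched was the 250 bases before each start, on both strands, for CTTTGA, for CTTTGT, for the CDX motif TTTATG and the PBX-HOX motif TGATNNAT, in which N is any base. The 3 windows below are those of HOXB1, a group 1 gene with its highest level in the Wnt3a library, and of HOXA7 and HOXD13, both with similar levels in all libraries. Each is written 5′ to 3′ in the direction of its gene, with capitals for matches to the 4 motifs.
HOXB1, chr17:48531012-48531261, minus strand: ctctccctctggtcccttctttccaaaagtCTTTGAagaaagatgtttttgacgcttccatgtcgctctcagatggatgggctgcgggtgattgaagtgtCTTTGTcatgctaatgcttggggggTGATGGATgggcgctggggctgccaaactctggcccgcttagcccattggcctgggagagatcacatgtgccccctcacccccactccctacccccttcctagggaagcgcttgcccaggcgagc
HOXA7, chr7:27156676-27156925, minus strand: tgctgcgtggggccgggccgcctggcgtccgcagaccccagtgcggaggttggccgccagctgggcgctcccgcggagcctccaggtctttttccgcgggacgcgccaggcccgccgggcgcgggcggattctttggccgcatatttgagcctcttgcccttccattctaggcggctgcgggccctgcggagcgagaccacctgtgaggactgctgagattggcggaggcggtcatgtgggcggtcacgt
HOXD13, chr2:176092471-176092720, plus strand: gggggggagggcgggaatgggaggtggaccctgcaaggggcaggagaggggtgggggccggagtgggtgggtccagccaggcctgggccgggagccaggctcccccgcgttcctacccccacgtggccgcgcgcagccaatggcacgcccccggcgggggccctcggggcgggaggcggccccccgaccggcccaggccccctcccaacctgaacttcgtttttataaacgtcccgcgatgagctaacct
The HOXB1 window held CTTTGA from 220 bases before the start, CTTTGT from 150 bases before it and TGATNNAT from 125 bases before it. The HOXA7 and HOXD13 windows held none of the 4 motifs. The GC content was 57.2% in the HOXB1 window, 70.8% in that of HOXA7 and 74% in that of HOXD13. HOXA3, whose windows are not printed, held TTTATG 3 times in a single window. Whether the motifs go with the GC content of the windows or with the levels of the genes was not tested. Over all 35116 RefSeq windows of this length, CTTTGA was present in 11.2%, CTTTGT in 13.7%, both in 2.14%, TTTATG in 9.64% and TGATNNAT in 6.47%. Among the 20 HOX genes matched, CTTTGA was found for 3 (HOXA10, HOXB1 and HOXD12), CTTTGT for 2 (HOXA11 and HOXB1), TTTATG for 3 (HOXA3, HOXA9 and HOXD8) and TGATNNAT for 3 (HOXA2, HOXB1 and HOXD11). Counted by window, the unit of the shares over all windows, the motifs were in 3, 2, 3 and 3 of the 27 HOX entries. CTTTGA and CTTTGT were both in 1 of the 27. A match of letters is a description of the window and not a binding site. The libraries were mapped to the earlier build hg19, and no coordinate of that build is used here.

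In these cells the RNA of the 38 genes came mostly from HOXA2 to HOXA7 and from HOXD13. Levels are given as RPKM (reads per kilobase of gene length, scaled to the size of the library), and reads were recovered from those values. Over the 6 libraries together the 10 HOXA genes held 2040 reads, the HOXD genes 321, the HOXB genes 60 and the HOXC genes 25. The highest RPKM of any of them in any library was 4.0 in HOXA, 1.22 in HOXD, 0.639 in HOXB and 0.113 in HOXC. These HOXA genes made up 78.0% to 86.5% of the RPKM summed over the 38 genes in every library.

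**Figure D1:**
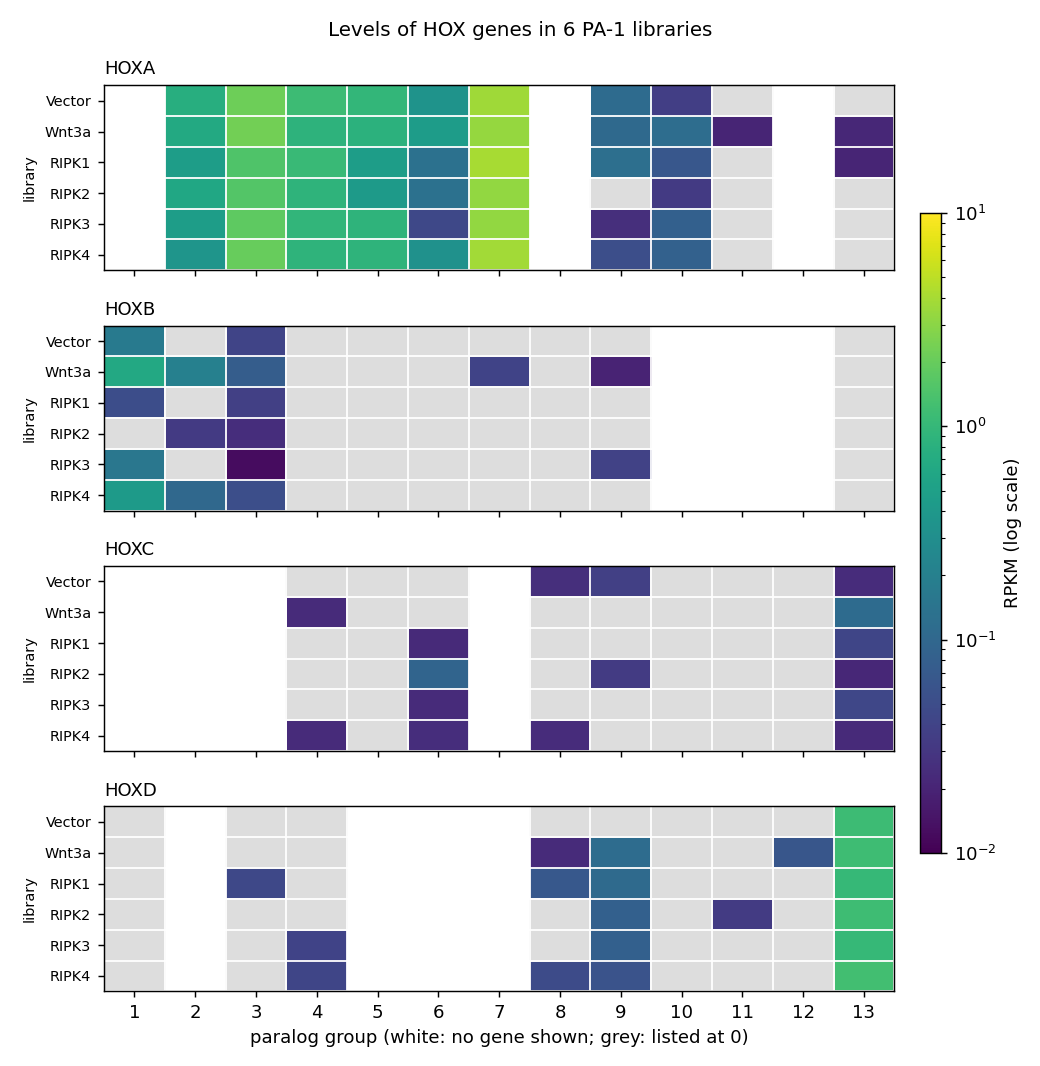
RPKM of the 38 HOX genes (colour, log scale) by paralog group (columns) and library (rows) in each cluster; grey cells are listed at 0 and white cells are positions with no gene shown. Colour runs along HOXA2 to HOXA7 and at HOXD13 in all 6 libraries, while HOXB4 to HOXB13 and HOXC are mostly grey.

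Of the 38 genes, 3 reached a mean of 1 RPKM over the libraries: HOXA3, HOXA7 and HOXD13. HOXD13 was just inside this limit with a mean of 1.13, and HOXA4 just outside it with 0.968. Between 3 and 4 of them reached 1 RPKM in any 1 library (4 with Vector and RIPK1, 3 in the others), whereas 57.1% to 58.2% of all genes did. Another 5 genes held more than 25 reads in all but stayed below the mean (HOXA2, HOXA4, HOXA5, HOXA6 and HOXB1), and 19 held 1 to 25 reads. The last 11 were listed at 0 in every library: HOXB4, HOXB5, HOXB6, HOXB8, HOXB13, HOXC5, HOXC10, HOXC11, HOXC12, HOXD1 and HOXD10. For these a count of 0 allows up to 3 reads, or between 0.0409 and 0.0881 RPKM depending on the library and the gene's exon length in GENCODE 29.

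**Figure D2:**
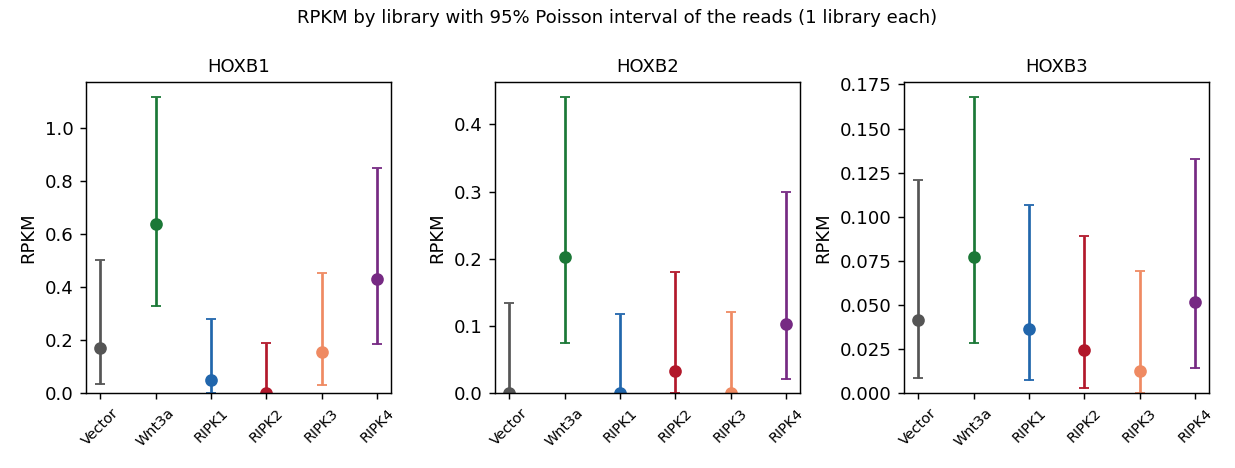
RPKM (linear axis from 0) of HOXB1, HOXB2 and HOXB3 in each library, 1 library a point, with exact 95% Poisson intervals of the reads. For each gene the Wnt3a library is highest and the RIPK4 library second, with 0.639 and 0.431 RPKM for HOXB1, and the intervals of Wnt3a and Vector overlap for all 3 genes.

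On few reads, 2 ratios of single genes to Vector had an interval above 1, HOXB1 and HOXB2 in Wnt3a. Both are 3′ genes of the HOXB cluster, and HOXB1 is at the edge. Ratios were taken for genes with more than 3 reads in either library, 14 genes in Wnt3a against Vector. HOXB1 and HOXB2 passed this only by their Wnt3a reads, so they could only come out higher. The share of all genes with an interval wholly above or below 1 was not computed, for these ratios or for those that follow. HOXB1, the group 1 gene, gives identity to a segment of the hindbrain and is a target of retinoic acid. Its RPKM was 0.172 in Vector, 0.639 in Wnt3a, 0.0505 in RIPK1, 0 in RIPK2, 0.155 in RIPK3 and 0.431 in RIPK4, from 3, 12, 1, 0, 3 and 8 reads. The Wnt3a library was highest, RIPK4 second, and the other 4 held at most 3 reads. With 1 library a group there is no replicate error and no test, so each ratio here has an exact (Clopper-Pearson) 95% interval from the reads of the 2 libraries, which covers counting error only and compares libraries, not conditions. The Wnt3a to Vector ratio was 3.73 with an interval of 1.01 to 20.6 (from 0.978 with the libraries rescaled, which then includes 1), and the RIPK4 to Vector ratio was 2.51 with an interval of 0.602 to 14.7. The reads follow from a length of 1014 bases, the shortest that makes all values whole. A length of 2028 bases fits as well, lies nearer to the longest GENCODE transcript (2024 bases) and would give 2 times the reads and narrower intervals. HOXB2, a hindbrain gene known to lie downstream of HOXB1, held 0, 6, 0, 1, 0 and 3 reads in the same order of libraries. With Vector set at a floor of 3 reads, the Wnt3a to Vector ratio was 1.86, which leaves out counting error and is not a lower limit. The lower limit of the interval was 1.10. Neither the HOXB1 nor the HOXB2 ratio was corrected for the trend over GC content given below. HOXB3 held 3, 6, 3, 2, 1 and 4 reads, and its Wnt3a to Vector interval (0.398 to 11.5) includes 1. Summed over the cluster, HOXB genes held 6 reads in Vector, 26 in Wnt3a, 4 in RIPK1, 3 in RIPK2, 6 in RIPK3 and 15 in RIPK4. The ratio of these sums, each taken over its library total, was 4.04 for Wnt3a against Vector (1.62 to 12.0) and 2.35 for RIPK4 against Vector (0.863 to 7.40). The sums hold the HOXB1 and HOXB2 reads again, so they are not separate support for the ratios of those genes. They would also change with the longer HOXB1 length. Of the HOXB reads in the Wnt3a library, 24 came from HOXB1, HOXB2 and HOXB3 and 2 from the remaining 7 genes. HOXD1, the group 1 gene of HOXD, was listed at 0 throughout.

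The HOXA genes with the most reads varied less. HOXA7, a thoracic-level gene, was the highest of the 38 genes in every library. Its RPKM was 3.72 in Vector, 3.38 in Wnt3a, 4.0 in RIPK1, 3.27 in RIPK2, 3.25 in RIPK3 and 3.88 in RIPK4, and no interval of its ratios to Vector excluded 1. In GENCODE 29, HOXA-AS3 on the opposite strand overlaps 62.5% of HOXA7 exon bases, so without strand the reads of the 2 genes cannot be told apart. HOXA3, which patterns the pharyngeal arches, had an RPKM of 2.17 in Vector, 2.28 in Wnt3a, 1.5 in RIPK1, 1.59 in RIPK2, 1.80 in RIPK3 and 2.03 in RIPK4. HOXA3 was highest in Wnt3a and lowest in RIPK1, from 104 to 150 reads. The ratio to Vector was 0.691 in RIPK1 (0.530 to 0.900) and 0.733 in RIPK2 (0.564 to 0.951), and the intervals of the other 3 include 1. How many of all genes had an interval below 1 in these libraries was not computed. Other genes overlap 17.9% of HOXA3 exon bases.

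HOXA2, HOXA4, HOXA5 and HOXA6 were lower and rested on 1 to 36 reads a library. HOXA2, the gene of second-arch identity, held 23 reads in Vector, 22 in Wnt3a, 16 in RIPK1, 21 in RIPK2, 16 in RIPK3 and 12 in RIPK4, and no interval excluded 1. HOXA4 held 34, 28, 36, 30, 31 and 28 reads in that order, again with every interval including 1, and 47.3% of its exon bases overlap other genes. HOXA5, needed for lung development, held 22, 21, 12, 11, 23 and 22 reads. The RIPK1 and RIPK2 libraries were the low pair, with a ratio to Vector of 0.447 (0.196 to 0.962) in RIPK2 and 0.482 (0.218 to 1.02) in RIPK1. HOXA6 held 7, 10, 3, 3, 1 and 7 reads, and its RIPK3 to Vector interval (0.00286 to 1.005) reaches just past 1. Other genes overlap 40.1% of HOXA6 exon bases. The 5′ genes HOXA9, HOXA10, HOXA11 and HOXA13 held 6, 13, 10, 2, 6 and 7 reads together, with HOXA9 and HOXA10 the main sources.

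**Figure D3:**
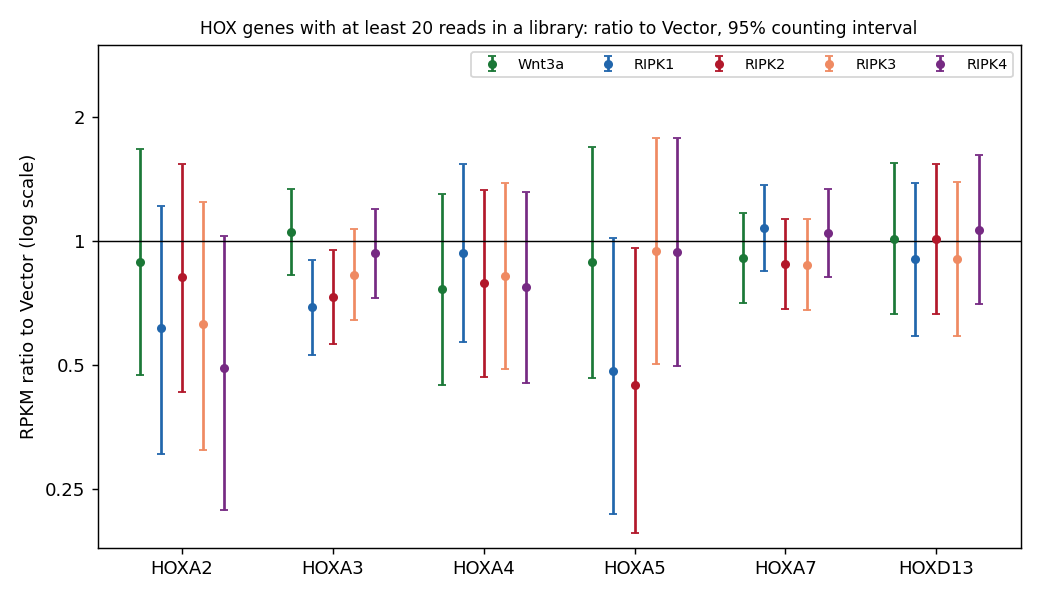
Ratio of RPKM to Vector (log axis) for the 6 HOX genes with at least 20 reads in a library, with exact 95% counting intervals; colours are the 5 libraries compared with Vector. HOXA3 in RIPK1 (0.691) and RIPK2 (0.733) and HOXA5 in RIPK2 (0.447) lie below the line at 1 with their whole interval, and no gene lies wholly above it.

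**Figure D4:**
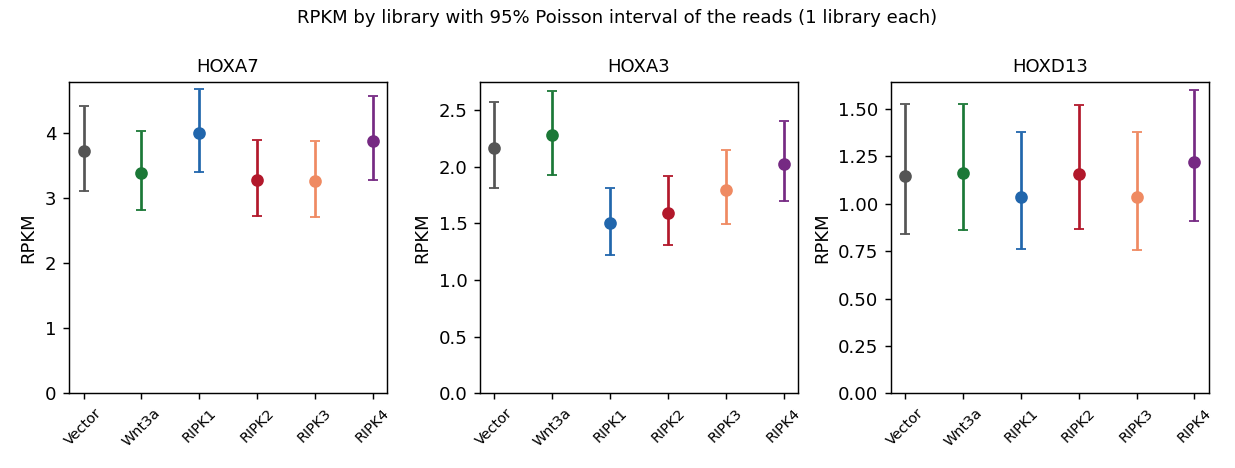
RPKM (linear axis from 0) of HOXA7, HOXA3 and HOXD13 in each library, 1 library a point, with exact 95% Poisson intervals of the reads. HOXA7 lies between 3.25 and 4.0 and HOXD13 between 1.04 and 1.22, while HOXA3 is lowest in RIPK1 at 1.5.

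HOXD13, the 5′-most gene of its cluster and a gene of digit and urogenital patterning, was on at a nearly even level while the genes between HOXD1 and HOXD12 were close to silent. Its RPKM was 1.15 in Vector, 1.16 in Wnt3a, 1.04 in RIPK1, 1.16 in RIPK2, 1.04 in RIPK3 and 1.22 in RIPK4, from 46 to 52 reads. No interval of its ratios to Vector excluded 1, and no other gene overlaps its exons in GENCODE 29. The other 8 HOXD genes together held 0 reads in Vector and 6, 9, 4, 4 and 5 in the Wnt3a, RIPK1, RIPK2, RIPK3 and RIPK4 libraries. HOXD9 accounted for 4, 4, 3, 3 and 2 of these. With the libraries rescaled, the sum of the 8 genes against Vector had an interval from 1.70 upward in RIPK1 and from 1.07 in Wnt3a. As Vector held 0 reads, this sum could only come out higher. In HOXC, HOXC13 was the one gene with a read in every library (1, 5, 2, 1, 2 and 1), and HOXC6 held 4 reads in RIPK2 and at most 1 elsewhere.

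Across the 38 genes the summed RPKM was 10.7 in Vector, 11.3 in Wnt3a, 9.24 in RIPK1, 8.44 in RIPK2, 8.95 in RIPK3 and 10.6 in RIPK4. The sums of Vector, Wnt3a and RIPK4 were higher than those of the other 3 libraries. On the reads behind these sums, taken over the library totals, the ratio to Vector was 1.04 in Wnt3a (0.911 to 1.19) and 0.983 in RIPK4 (0.856 to 1.13). The same ratio was 0.867 in RIPK1 (0.753 to 0.997), 0.805 in RIPK2 (0.697 to 0.929) and 0.846 in RIPK3 (0.734 to 0.975), and these 3 intervals lie below 1. The 10 HOXA genes alone gave 0.844 in RIPK1 (0.725 to 0.983), 0.765 in RIPK2 (0.654 to 0.895) and 0.827 in RIPK3 (0.709 to 0.964). All these ratios share the Vector library. Whether sums of other genes gave intervals below 1 in the same libraries was not tested, so the lower sums are not shown to be particular to HOX genes. With the libraries rescaled, RIPK4 to RIPK2 was 1.16 (1.01 to 1.34) over the 38 genes. RIPK4 to RIPK3 was 1.14 (0.991 to 1.31), which includes 1, so RIPK4 is not set apart from RIPK3. The interval of RIPK4 to RIPK1 is not given here, so RIPK4 is not shown to be set apart from RIPK1 either. HOXA7 supplied 30.0% of the summed RPKM in Wnt3a, the lowest share, and 43.3% in RIPK1, the highest.

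Calls were made in each comparison where log2(RPKM + 1) differed by at least 1, that is 2-fold on a scale that understates the change of low genes, among the 11881 genes with a mean of at least 1 RPKM. A library's own transfected kinase was left out of its counts. In Wnt3a against Vector, 0 of HOXA3, HOXA7 and HOXD13 were higher and 0 lower, beside 0.673% of all genes higher and 1.43% lower. The medians were 0.01 over the 3 HOX genes and 0.04 over all genes. In RIPK4 against Vector the counts were again 0 and 0, beside 0.396% of all genes higher and 0.387% lower. The medians there were 0.05 over the HOX genes and 0.05 over all genes. Rescaling the libraries by median-of-ratios size factors changed the split over all genes in this comparison from 47 higher and 46 lower to 35 and 57, with none of the 3 HOX genes called. The same rescaling turned the HOX median to -0.012 in Wnt3a and -0.00070 in RIPK4, so neither median has a stable direction.

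For RIPK1 against Vector, 0 of the 3 HOX genes were higher and 0 lower, beside 0.295% and 0.547% of all genes, with medians of -0.08 over the HOX genes and 0.01 over all genes. For RIPK2 the counts were again 0 and 0, beside 1.59% and 0.699%, and the medians were -0.14 and -0.01. RIPK3 gave 0 and 0, beside 1.47% and 0.581%, and medians of -0.15 and 0.02. HOXA3 was below Vector in each of these 3 libraries, by 0.18 to 0.34 on this scale, and HOXD13 was within 0.08 of it. The 5 comparisons share the Vector library. In RIPK4 against Wnt3a, 0 of the 3 were higher and 0 lower, beside 0.295% and 0.143% of all genes, with medians of 0.04 and 0.02.

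Differences from Vector moved with the GC content of transcripts over all genes in 4 of the 5 comparisons. The Spearman rho across genes, which are not independent replicates, was 0.692 in Wnt3a, 0.662 in RIPK2, 0.544 in RIPK3 and 0.666 in RIPK4, whereas it was -0.08 in RIPK1. In RIPK4 against Wnt3a it was -0.34. The 3 HOX genes above the limit have a GC content of 50.2% (HOXD13), 54.1% (HOXA7) and 55.8% (HOXA3). With the trend over GC content removed, their median was -0.23 in Wnt3a, -0.11 in RIPK1, -0.31 in RIPK2, -0.29 in RIPK3 and -0.15 in RIPK4, each against Vector. In Wnt3a and RIPK4 it turned from above 0 to below it. No ratio of HOX genes, of sums or of the listed genes below was corrected for this trend. HOXB1 (58.4%) and HOXB2 (57.2%) have a higher GC content than HOXA3, where the trend in Wnt3a was 0.28 on the log2(RPKM + 1) scale. Whether their Wnt3a intervals would hold with the trend removed was not tested.

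The genes around the HOX clusters were read from lists of their regulators and partners. Over all genes 0.143% to 1.59% were called in a given direction and comparison, so 0 calls in lists of 5 to 27 genes is near the background and is not a result about those lists. Of 13 ParaHox and extended Hox genes, 3 passed the limit of 1 RPKM, and 2 of these, CDX1 and CDX2, were called higher with Wnt3a and with RIPK4. CDX1 and CDX2 passed the limit only by their Wnt3a and RIPK4 values and were below 1 RPKM in every other library. Against Vector they could therefore only be called higher. CDX factors bind and activate HOX genes in the posterior embryo. CDX1 RPKM was 0.0327 in Vector, 18.8 in Wnt3a, 0 in RIPK1, 0.205 in RIPK2, 0.237 in RIPK3 and 7.61 in RIPK4. CDX2 RPKM was 0.638, 8.48, 0.466, 0.298, 0.276 and 5.64 in the same order. Both were highest in Wnt3a and second in RIPK4, the order also seen for HOXB1, and a link between them was not tested. CDX1 rested on 1 read in Vector against 618 in Wnt3a, a ratio with an interval of 103 to 22769, and CDX2 was 13.3-fold higher in Wnt3a than in Vector (8.70 to 21.2) and 8.84-fold higher in RIPK4 (5.74 to 14.2). In RIPK4 against Wnt3a, CDX1 was called lower, at 0.404 of the Wnt3a level (0.347 to 0.469). GBX2, the third gene above the limit and a regulator of the midbrain-hindbrain boundary, had 58.9 RPKM in Vector, 60.0 in Wnt3a and 62.3 in RIPK4, with 42.4 to 45.6 in the RIPK1, RIPK2 and RIPK3 libraries.

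Among 19 retinoid genes 11 passed the limit. CRABP2, a carrier that brings retinoic acid to its receptors, was called higher with Wnt3a, and CYP26A1, the enzyme that breaks retinoic acid down, was called lower. CYP26A1 RPKM was 7.74 in Vector, 0.218 in Wnt3a, 9.24 in RIPK1, 7.07 in RIPK2, 7.59 in RIPK3 and 4.42 in RIPK4. The Wnt3a value was 0.0281 of Vector (0.0134 to 0.0524) and the RIPK4 value 0.572 of it (0.477 to 0.683), so RIPK4 lay between Vector and Wnt3a. In RIPK4 against Wnt3a, CYP26A1 was the retinoid gene called higher. CRABP2 RPKM was 121, 269, 116, 98.1, 109 and 171 across the libraries, again highest in Wnt3a and second in RIPK4. The retinoic acid receptor gene RARB went another way, at 0.346 of Vector in RIPK2 (0.264 to 0.451) and 0.403 in RIPK3 (0.311 to 0.519), with intervals that include 1 in the other 3 libraries. Its sister receptor RARG was higher than Vector in 4 libraries, 2.31-fold in RIPK3 (1.76 to 3.06), 2.01-fold in Wnt3a (1.52 to 2.68), 1.80-fold in RIPK2 (1.36 to 2.41) and 1.64-fold in RIPK4 (1.23 to 2.21). Neither reached the 2-fold limit on the log2(RPKM + 1) scale. The 4 libraries in which RARG was higher are those in which differences from Vector moved with GC content. These ratios were not corrected for it.

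All 8 HOX cofactor genes examined passed the limit, with 0 calls beside the shares of all genes just given. These TALE homeodomain proteins bind DNA together with HOX proteins. MEIS1, MEIS2 and PKNOX2 were lower in RIPK2 and RIPK3 than in Vector. For MEIS1 the RPKM was 3.89 in Vector, 5.0 in Wnt3a, 4.79 in RIPK1, 2.31 in RIPK2, 2.14 in RIPK3 and 3.30 in RIPK4, with a ratio of 0.550 in RIPK3 (0.468 to 0.644). PKNOX2 stood at 0.622 of Vector in RIPK2 (0.508 to 0.760), and MEIS2 at 0.732 (0.675 to 0.793). MEIS3 was highest in Wnt3a (10.9 RPKM) and lowest in RIPK1 (6.38 RPKM).

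Of 28 Polycomb genes 27 passed the limit, with 0 higher and 0 lower in all 6 comparisons, beside at most 1.59% of all genes in a direction. PHC1, a subunit of the canonical Polycomb repressive complex, came nearest, at 0.303 of Vector in Wnt3a (0.227 to 0.400), a difference of -0.97. Its relative PHC2 was 1.64-fold higher in RIPK2 (1.54 to 1.75) and 1.74-fold higher in RIPK3 (1.63 to 1.86). All 15 trithorax and H3K27 demethylase genes passed the limit with 0 calls, beside the same shares. MLL2, a histone H3 lysine methyltransferase gene, came nearest with a difference of 0.96 in RIPK3, and DPY30, a core subunit of such complexes, was at 0.546 of Vector in RIPK2 (0.483 to 0.616). Of 16 other known regulators of HOX genes 5 passed the limit with 0 calls, among them WNT8A with 5.30 RPKM in RIPK4 and 2.47 in RIPK3, and the cohesin gene RAD21 with 71.5 to 123 RPKM. FGF8, a signal of the tail end of the embryo that stayed below the limit and is named after its values were seen, had 0.368 RPKM in Vector, 2.79 in Wnt3a, 0.464 in RIPK1, 0.423 in RIPK2, 0.332 in RIPK3 and 1.19 in RIPK4. Of 25 symbols of non-coding RNAs within the clusters, 3 matched the table (HOTAIR, HOXA11-AS and HOXB-AS5), and all were listed at 0 in every library.

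The labels were checked against the transfected genes and cell markers. Each kinase was highest in its own library: RIPK3 at 61.4 RPKM against at most 0.0384 elsewhere, RIPK4 at 17.9 against 0, RIPK2 at 27.4 against 8.50 to 11.8 and RIPK1 at 16.6 against 9.35 to 13.4. RIPK1 RNA was thus only 1.30-fold higher than Vector in its own library (1.20 to 1.41), a weak check of that label. Of 10 pluripotency markers 8 reached a mean of 1 RPKM, with a sum of 439 to 736 that was lowest in RIPK2 and highest in RIPK1, TDGF1 listed at 0 and NANOG at 0.0977 to 0.234 RPKM. Neural progenitor markers reached it in 3 of 7 genes (sum 270 to 340, SOX1 at 0), fibroblast markers in 5 of 8 (131 to 262, DCN at 0), endothelial markers in 4 of 5 (48.0 to 66.8), trophoblast markers in 1 of 6 (3.96 to 8.19, CGA and KRT7 at 0) and haematopoietic markers in 0 of 6 (0.309 to 0.840). The fibroblast sum was lowest in RIPK1 and highest in RIPK3, and the part of any of these in the HOX levels was not tested. In bulk RNA, fewer cells that express a gene and less RNA in each cell cannot be told apart.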

How the data were processed

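RNA from 6 PA-1 cultures, 1 library a group, was sequenced on Illumina libraries, and groups were taken from the transfection label. GSNAP, DESeq and the build hg19 are named in the submitters' processing notes. Their roles and versions, the annotation and the counting rule were not given in the sources used here. The authors deposited RPKM for 20494 genes, and these values were used with no rescaling.

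HOX genes were found by symbol. A gene that the symbols also match and a cofactor gene are not reported here. Members and gene lists were chosen with earlier results of these data known. Genes with a mean of at least 1 RPKM (11881) were compared on log2(RPKM + 1), and a difference of 1 counted as a call. Every member was accounted for. Those above the limit were given in every library, others by name with 20 reads in a library or an interval excluding 1, and from each list up to 4 genes with the largest differences.

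Reads were recovered by finding, for each gene, the shortest length from 15 to 30000 bases that made all 6 values whole within the rounding of 5 digits. This solved 88.2% of genes and all 27 HOX genes described that have a value. Recovered totals ranged from 17.2 M reads (Vector) to 19.5 M (RIPK1), and 3 reads of a 2000-base gene equal 0.0769 to 0.0870 RPKM. A length 2 times the accepted one lay nearer to the longest GENCODE 29 transcript for HOXA13, HOXB1, HOXD4 and HOXD12, whose reads may be 2 times those given. No molecular identifiers are recorded, so reads may not be independent molecules, and intervals and floors cover counting error only. GC content came from GENCODE 29 (11808 genes). Python 3.11.15, scipy 1.17.1 and statsmodels 0.14.6 were used. Alternatives were an added value of 0.1, no filter, median-of-ratios rescaling, removal of the GC trend (lowess) and detection at 3 reads.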

Additional observations from a re-analysis of the deposited data

How the results depend on the processing

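With 1 library a group, no value here has a replicate check. No paired analysis was possible because no group has a second library. The alternatives left 71 values of the comparisons near their first value and moved 13. Near means counts within 1.5 times, medians within the range of the 3 genes and sums within counting error. Many of the 71 are counts of 0 calls that stayed at 0, which says little about stability. None of the differences of HOXA3, HOXA7 and HOXD13 reached the limit of a call. Signs of small values did change, for 5 of 24 medians and 7 of 72 differences of these genes. Rescaling turned the HOX median to -0.012 for Wnt3a and -0.00070 for RIPK4, and no filter turned that of RIPK4 against Wnt3a from 0.04 to -0.03. With the GC trend removed, HOXA3 in Wnt3a went from 0.05 to -0.23, HOXA7 in RIPK4 from 0.05 to -0.15, and HOXD13 to -0.11 in Wnt3a, -0.04 in RIPK2 and -0.05 in RIPK4. With the GC trend removed, the HOX medians moved to -0.23 for Wnt3a, -0.31 for RIPK2, -0.29 for RIPK3 and -0.15 for RIPK4, each against Vector. With 0.1 as the added value they were -0.19 for RIPK3 and 0.060 for RIPK4, and with no filter the RIPK3 median was -0.040 over 18 genes. Detection at 3 reads in place of 1 RPKM gave 10 HOX genes in Vector, 14 in Wnt3a, 12 in RIPK1, 9 in RIPK2, 9 in RIPK3 and 11 in RIPK4. Over all genes, 80 were higher and 170 lower in Wnt3a, 35 and 65 in RIPK1, 189 and 83 in RIPK2, 175 and 69 in RIPK3, 47 and 46 in RIPK4, and 35 and 17 in RIPK4 against Wnt3a. With 0.1 as the added value these were 225 and 294, 69 and 112, 346 and 145, 299 and 116, 143 and 78, and 59 and 30. With the GC trend removed they were 41 and 99 in Wnt3a, 128 and 52 in RIPK2, and 26 and 20 in RIPK4 against Wnt3a. Depth limits every HOXB, HOXC and 5′ HOXA statement, which rest on 0 to 12 reads a gene and library.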
